A study of Homo sapiens with 6 samples.

Results

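The replication-dependent histone genes of SK-N-BE (2) cells were described in 6 RNA-seq samples. They were chosen by name, as the protein-coding genes of GENCODE release 29 whose symbols begin with HIST1H, HIST2H, HIST3H or HIST4H. This gave 71 of the 58302 genes in the deposited tables, and each of the 71 was present in all 6 tables. There were 6 linker histone H1 genes, 17 H2A genes, 18 H2B genes, 15 H3 genes and 15 H4 genes. By cluster, 55 belonged to HIST1 on chromosome 6, 12 to HIST2 and 3 to HIST3 on chromosome 1, and 1 to HIST4 on chromosome 12. SK-N-BE (2), the single line used, derives from a neuroblastoma with amplified MYCN. The cells received a negative control siRNA (NC, 3 samples, called siNC in the paper) or an siRNA against Prp19 (siPrp19, 3 samples). The samples of a group are biological replicates per the paper's methods. The labels give 72 h after transfection and the paper's methods a shorter time. The question of the series was which genes change when Prp19, a pre-mRNA splicing factor encoded by PRPF19, is lowered.

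Core histones H2A, H2B, H3 and H4 form the protein spool of the nucleosome, and H1 binds the linker DNA between nucleosomes. The genes studied here supply the new histones needed while DNA is copied in S phase, so in dividing cells their mRNAs rise and fall with the cell cycle. Most of these genes have no intron, and their mRNAs end in a short hairpin, the stem-loop, in place of a poly(A) tail. The stem-loop is bound by SLBP and cut with the help of the U7 snRNP. Some of the genes also make longer mRNAs with a poly(A) tail, which are known from cells that leave the cell cycle or differentiate. Replication-independent histones such as H1F0, H2AFZ and H3F3A come from ordinary polyadenylated mRNAs.

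Levels are given as FPKM, fragments per kilobase of gene relative to depth. The length used is that of all annotated exons of a gene, 297 to 5477 bases among the 71 genes. Where the mRNA made is shorter or longer than this, levels of different genes compare only roughly. Reads recovered from the FPKM values and exon lengths numbered 19058781 to 24181789 per sample on all genes and 1848 to 5770 on the 71 histone genes. PRPF19 had 53.1, 53.1 and 64.9 FPKM in NC replicates 1, 2 and 3 and 21.8, 28.5 and 33.6 FPKM in siPrp19 replicates 1, 2 and 3, so every siPrp19 sample lay below every NC sample. Among markers of adrenergic neuroblastoma, MYCN had 801 to 1215 FPKM, HAND2 268 to 350.0 FPKM and TH 143 to 242 FPKM over the 6 samples. Of 6 markers of other cell types, EPCAM reached 2.48 FPKM and COL1A1 46.5 FPKM, while PTPRC, PECAM1 and COL1A2 stayed at or under 0.116 FPKM. Same-numbered NC and siPrp19 samples deviated together from their group means (Pearson's r across genes 0.38, 0.57 and 0.64 for replicates 1, 2 and 3), so values are also given within same-numbered pairs.

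The stem-loop was looked for in the annotated transcripts, because it marks where a replication-dependent histone mRNA normally ends. The pattern was a 6-base stem GGNNNN, a 4-base loop TTNN and the exact reverse complement of the stem, read on the transcript strand. It was found in 30 of the 71 genes and in 0.625% of 19851 other protein-coding genes. The models of 33 of the 71 genes cover coding bases only, so a stem-loop after the stop codon could not be found in them. The 30 genes held 4 different sequences, printed 5′ to 3′ with the loop in capitals. The first was found in 17 genes of H2A, H2B and H3, the second in 5 genes of H2B and H3, the third in 5 H4 genes and the fourth in 3 H4 genes. The gene named for each is the one of highest level that carries it, with its position on GRCh38 and its strand.

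HIST3H2A, chr1:228457369-228457384, minus strand: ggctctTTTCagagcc

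HIST1H2BD, chr6:26158587-26158602, plus strand: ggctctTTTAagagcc

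HIST1H4H, chr6:26285131-26285146, minus strand: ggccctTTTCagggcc

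HIST1H4I, chr6:27139654-27139669, plus strand: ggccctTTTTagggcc

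The stem differed between H4 genes and the rest, and no stem was shared by an H4 gene and a gene of another class. In several of the more abundant genes the annotated transcript ran on past the stem-loop to a poly(A) signal, AATAAA or ATTAAA. These ends are shown because they mark transcripts that could carry a poly(A) tail, with the signal in capitals and the bases that follow it in the transcript.

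HIST3H2A, chr1:228456983-228457002, minus strand, 366 bases after the stem-loop: ATTAAAagtatttatgatct

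HIST1H2AC, chr6:26139088-26139107, plus strand, 1099 bases after the stem-loop of the same transcript: AATAAAaggtaatgcaaagg

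HIST2H2BE, chr1:149884463-149884482, minus strand, 1705 bases after the stem-loop: AATAAAgttaccaattaatt

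HIST1H2BD, chr6:26171325-26171344, plus strand, in a spliced transcript without a stem-loop: AATAAAatctgcggagaatt

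HIST1H2BD is 1 of 6 genes with a transcript that holds the stem-loop and a spliced transcript in which it was not found. The others were HIST1H2AC, HIST1H2BC, HIST1H2BN, HIST2H2BF and HIST4H4.

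Expression of the histone genes rested on a few of them. The 4 most abundant genes held 67.0% of the summed mean FPKM of all 71, and the 20 genes averaging 1 FPKM or more held 91.9%. The most abundant of all was an H2A gene, HIST3H2A (ENSG00000181218, now H2AC25; chromosome 1, 228456979 to 228457873, minus strand). It had 36.7, 46.6 and 27.2 FPKM in NC replicates 1, 2 and 3 and 61.9, 53.2 and 38.2 FPKM in siPrp19 replicates 1, 2 and 3, from 481 to 1259 reads. The groups overlapped in this gene, since siPrp19 replicate 3 lay within the range of the NC samples. HIST1H2AC, the next H2A gene, had 9.15, 12.6 and 2.49 FPKM with NC and 12.6, 17.0 and 3.04 FPKM with siPrp19, with replicate 3 the lowest of each group. HIST1H2AE had 1.71, 2.45 and 2.28 FPKM with NC and 3.72, 6.14 and 1.90 FPKM with siPrp19, so replicates 1 and 2 with siPrp19 stood above all other samples. HIST2H2AC ranged from 1.18 to 2.46 FPKM and HIST1H2AG from 1.56 to 1.84 FPKM over the 6 samples, with no separation of groups.

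**Figure D1:**
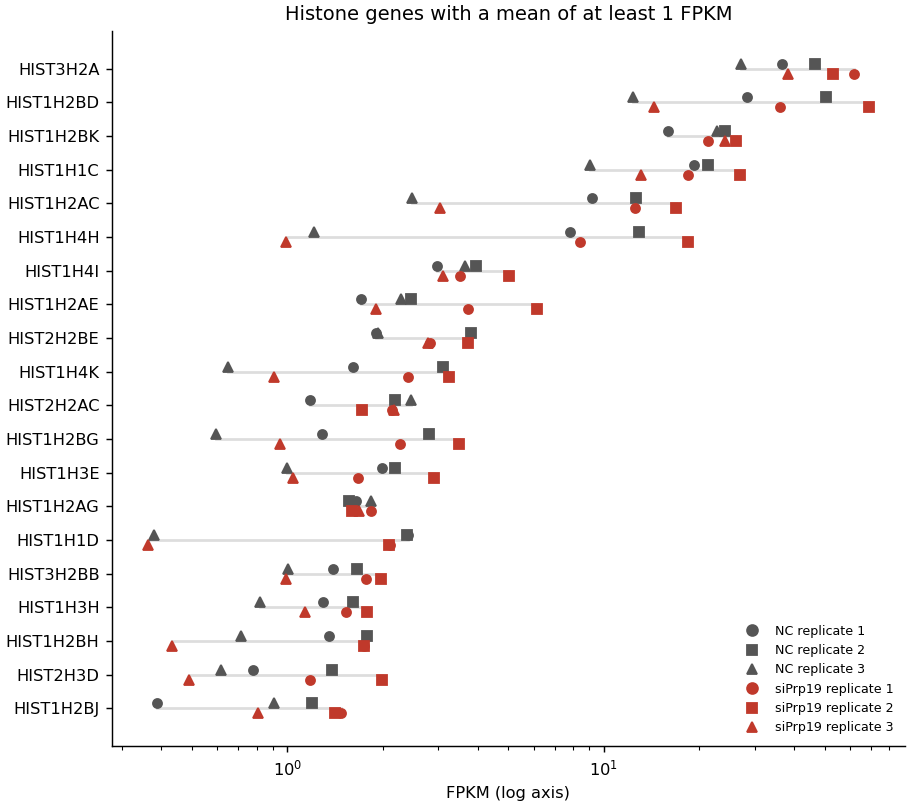
FPKM (x axis, log scale) of the 20 histone genes averaging 1 FPKM or more, ordered by mean, with 1 point per sample; grey stands for NC, red for siPrp19, and circle, square and triangle for replicates 1, 2 and 3. The triangles of HIST1H2BD, HIST1H2AC, HIST1H4H and HIST1H1D lie to the left of all other points in their rows, and no gene has all 3 red points to the right of all 3 grey points.

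Among the H2B genes, HIST1H2BD (ENSG00000158373, now H2BC5; chromosome 6, 26158146 to 26171349, plus strand) had 28.3, 50.5 and 12.4 FPKM in NC replicates 1, 2 and 3 and 36.2, 68.7 and 14.4 FPKM in siPrp19 replicates 1, 2 and 3. Its replicates differed from each other far more than the same-numbered NC and siPrp19 samples did. HIST1H2BK (now H2BC12) was steadier, with 16.004, 24.1 and 22.8 FPKM with NC and 21.4, 26.1 and 24.2 FPKM with siPrp19. Its annotated gene model covers coding bases only, and 28.4% of the 100-base words in it also occur in the transcript of H2BFS, so reads could be split between these genes. HIST2H2BE had 1.90, 3.80 and 1.94 FPKM with NC and 2.83, 3.73 and 2.77 FPKM with siPrp19. HIST1H2BG, HIST3H2BB, HIST1H2BH and HIST1H2BJ had means of 1.03 to 1.90 FPKM.

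The linker histones were nearly all HIST1H1C (ENSG00000187837, now H1-2), which held 88.8% of the H1 sum. It had 19.4, 21.4 and 9.06 FPKM in NC replicates 1, 2 and 3 and 18.4, 27.0 and 13.1 FPKM in siPrp19 replicates 1, 2 and 3. HIST1H1D, the gene of H1.3, had 2.41, 2.39 and 0.380 FPKM with NC and 2.11, 2.09 and 0.363 FPKM with siPrp19, a drop in replicate 3 of both groups. The other 4 H1 genes had means of at most 0.463 FPKM, among them HIST1H1T, a testis histone, which was above 0 in 1 of 6 samples. Of the H4 genes, HIST1H4H (ENSG00000158406, now H4C8) had 7.82, 12.97 and 1.22 FPKM with NC and 8.44, 18.4 and 0.988 FPKM with siPrp19, with both replicate 3 samples far below the others. HIST1H4I had 2.98, 3.95 and 3.63 FPKM with NC and 3.50, 5.02 and 3.12 FPKM with siPrp19, with all samples close together. HIST1H4K had a mean of 1.98 FPKM from only 4 to 21 reads per sample, and all of its 100-base words occur in HIST1H4J as well. No H3 gene reached a mean of 2 FPKM. HIST1H3E was the highest, with 1.99, 2.18 and 1.00 FPKM with NC and 1.68, 2.91 and 1.04 FPKM with siPrp19, followed by HIST1H3H at a mean of 1.36 FPKM and HIST2H3D at 1.07 FPKM.

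Summed by class, H2B made up 39.5% and H2A 35.5% of the histone FPKM, H1 11.4%, H4 9.98% and H3 3.56%. The H2A sum was 52.8, 68.7 and 39.7 FPKM in NC replicates 1, 2 and 3 and 84.4, 86.4 and 48.5 FPKM in siPrp19 replicates 1, 2 and 3, or 53.7 ± 14.5 FPKM and 73.1 ± 21.3 FPKM (SD, n = 3 each). The H2B sum was 63.4 ± 26.1 FPKM with NC and 77.8 ± 33.5 FPKM with siPrp19 (SD, n = 3 each). The H1 sum was 19.1 ± 7.75 and 21.6 ± 8.01 FPKM, the H4 sum 17.0 ± 9.32 and 18.6 ± 12.5 FPKM, and the H3 sum 6.06 ± 1.86 and 6.65 ± 1.99 FPKM, for NC and siPrp19 in this order (SD, n = 3 each). In each class the difference between group means was smaller than the SD of the siPrp19 samples. For H2A it was larger than the SD of the NC samples. These SDs include differences between replicates that same-numbered samples share, so they do not measure the spread of the change within pairs. Within same-numbered pairs the H2A sum with siPrp19 was 1.60, 1.26 and 1.22 times that of NC, and the H2B sum 1.35, 1.22 and 1.09 times. The H3 sum was 1.18, 1.06 and 1.06 times that of NC, and the H1 and H4 sums were higher in 2 of 3 pairs. Without siPrp19 replicate 2 the log2 ratio of siPrp19 to NC was below 0 for H1 (−0.13), H2B (−0.081), H3 (−0.074) and H4 (−0.49), and without NC replicate 3 it was below 0 for H1 (−0.12), H3 (−0.067) and H4 (−0.23). The H2A ratio was above 0 with each sample left out. Leaving out 1 sample breaks a pair, so these ratios also carry differences between replicates. The H2A class rested on HIST3H2A for 69.3% of its sum and the H2B class on HIST1H2BD for 49.7%.

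**Figure D2:**
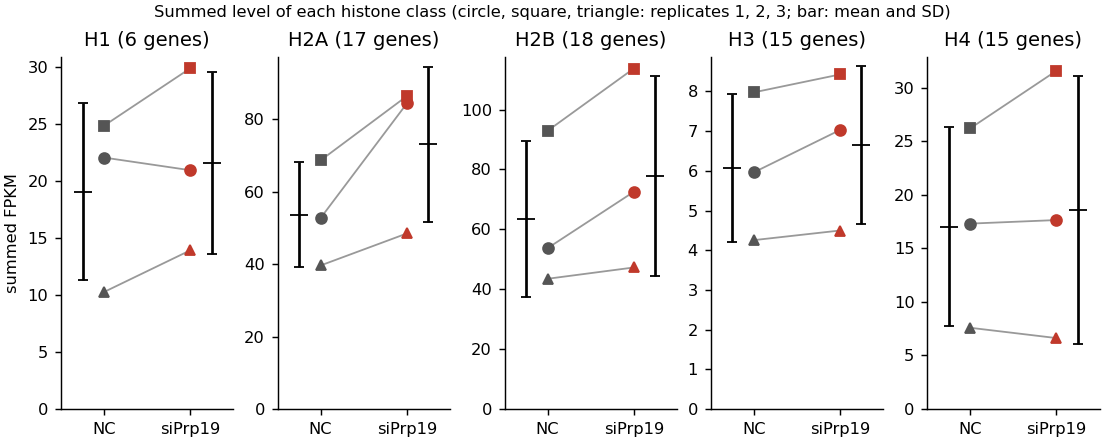
Summed FPKM (y axis, from 0) of the genes of each histone class in NC and siPrp19 samples; circle, square and triangle are replicates 1, 2 and 3, grey lines join same-numbered samples, and black bars give the mean and SD of 3 samples. All 3 lines of H2A, H2B and H3 go up, those of H1 and H4 go up in 2 of 3 pairs, and the triangles are the lowest point of each group.

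The other 51 histone genes had means under 1 FPKM and held 234 to 504 reads in all per sample. Of these, 5 were listed at 0 in every sample, 26 of the 71 genes were above 0 in some samples only, and 40 were above 0 in all 6. The highest of the low genes were HIST1H4J (mean 0.942 FPKM), HIST2H2AA3 (0.935 FPKM), HIST4H4 (0.926 FPKM), HIST1H2BE (0.866 FPKM) and HIST1H2AI (0.863 FPKM). HIST2H2AA3 owed its mean to siPrp19 replicate 2, with 4.56 FPKM from 52 reads against 1 to 3 reads in each of the other samples. All of the 100-base words of HIST2H2AA3 also occur in other genes, among them its copy HIST2H2AA4, so its level cannot be told from that of the copy. In total 16 of the 71 genes shared 50% or more of their 100-base words with another gene. Of the 5 genes at 0, HIST1H2AD, HIST1H2AK, HIST1H3D and HIST2H3PS2 had at least 90% of their exon bases covered by exons of another annotated gene, and only these 4 of the 71 did. The overlapping gene of HIST1H2AD and HIST1H3D, AL031777.3, had 0.0927 to 0.278 FPKM. HIST1H4F, also listed at 0, had no such overlap.

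The level of a histone gene was compared with its annotated transcript. For 33 genes the gene model covers coding bases only, and their median level was 0.148 FPKM. For 9 genes the transcript that holds the stem-loop ended within 100 bases after it, with a median level of 0.863 FPKM. For 21 genes such a transcript ran on for more than 100 bases, with a median of 0.866 FPKM. Transcripts without a stem-loop did not count here, so HIST1H2BD is among the 9 despite its longer spliced transcript. In the remaining 8 genes no stem-loop was found, with a median of 0.403 FPKM. A poly(A) signal in the last 40 bases of a transcript was found in 23 genes, and 10 of them (43.5%) averaged 1 FPKM or more, against 10 of the other 48 (20.8%). The 23 genes held 63.2% of the histone FPKM. They include HIST1H4J, whose signal precedes its stem-loop, and HIST2H2AA3 and HIST2H2AA4, whose signal lies 13 bases after it. The transcripts of these genes end within 100 bases after the stem-loop, so their signal does not mark a longer transcript. The comparison of levels is a description across genes that share sequence and position. It also depends on the annotation, since FPKM is divided by the annotated exon length. The median length was 393 bases for coding-only models and 1876 bases for those past the stem-loop. A model that stops at the stop codon also cannot show a poly(A) signal. HIST1H2BK and HIST1H1C, the third and the fourth gene by level, have such models.

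**Figure D3:**
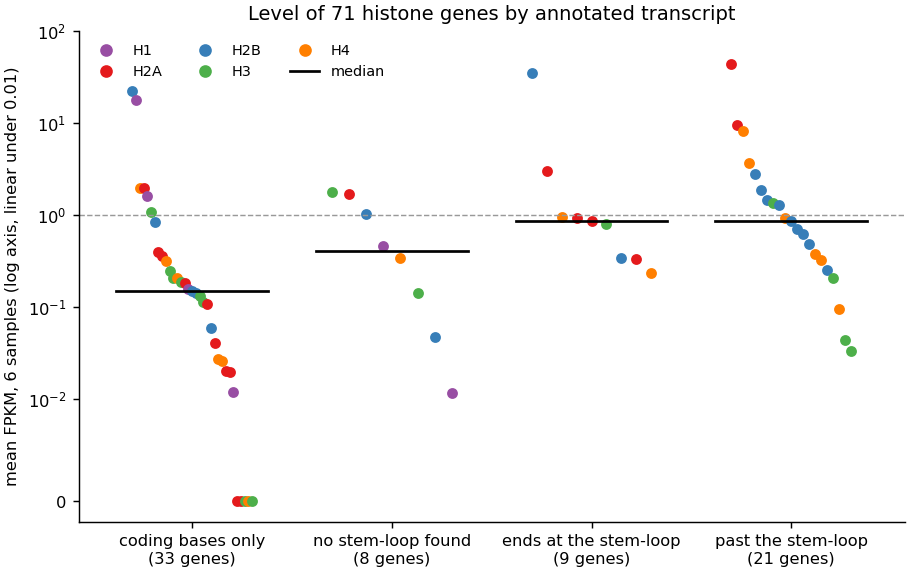
Mean FPKM over 6 samples (y axis, log scale, linear under 0.01) of each of the 71 histone genes, grouped by how far the annotated transcript reaches. Where a stem-loop was found, only transcripts that hold it count for the grouping. Colours give the histone class, black lines the median of each group and the dashed line 1 FPKM. Genes whose models cover coding bases only have the lowest median, 0.148 FPKM, and include the 5 genes at 0.

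The histone genes also bear on the kind of library, which the labels do not state beyond a kit name and total RNA as the molecule. The 71 genes together took 0.0382% to 0.0960% of the summed FPKM of a sample. Their sum ran from 105.2 FPKM in NC replicate 3 to 270.0 FPKM in siPrp19 replicate 2. One polyadenylated linker histone gene, H1F0, had 238.2, 226.5 and 173.1 FPKM with NC and 295.5, 231.8 and 189.2 FPKM with siPrp19, and so exceeded all 71 genes together in 5 of 6 samples. Of 6 RNAs known to lack a poly(A) tail, RN7SK, RN7SL1, RMRP and RPPH1 were listed at 0 in every sample and TERC had at most 0.0935 FPKM. The sixth, RN7SL2, the RNA of the signal recognition particle, had 1596 to 4493 FPKM, so RNA without a tail was not missing altogether. Near-identical copies such as RN7SL1 and RN7SL2 can exchange reads, and RMRP has 2 gene identifiers of this name. Overlap of these RNAs with other annotated genes was not tested, so a listed 0 is not shown to be absence of the RNA. Whether poly(A) RNA was selected was not tested.

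**Figure D4:**
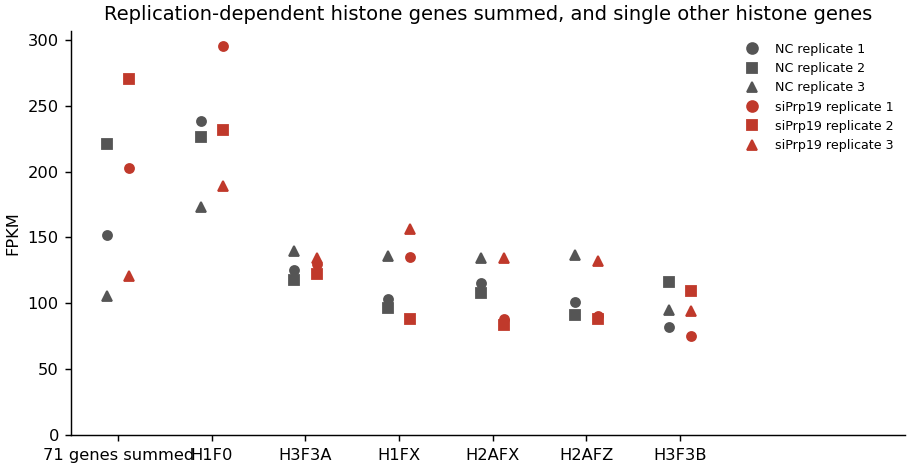
FPKM (y axis, from 0) of the 71 replication-dependent histone genes summed, beside 6 single replication-independent histone genes, with 1 point per sample; grey is NC, red is siPrp19, and circle, square and triangle are replicates 1, 2 and 3. H1F0 alone lies between 173.1 and 295.5 FPKM, and the triangle is the lowest point of each group for the sum and for H1F0 but not for H2AFZ.

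Replicate 3 stood apart in many of these genes, in both groups. In 12 of the 20 tested genes (60%) both replicate 3 samples lay below the other 4, against 23.0% of all 14462 genes tested. In none of the 20 did both lie above, against 25.1% of all genes. The mean of replicate 3 was 9.24% of that of replicates 1 and 2 for HIST1H4H, 16.5% for HIST1H1D, 21.5% for HIST1H2AC and 29.2% for HIST1H2BD. HIST1H2BK (107.4%), HIST1H2AG (105.9%) and HIST2H2AC (128.2%) were not lower. Genes of S phase went the other way, and in 13 of 16, among them PCNA, both replicate 3 samples lay above the other 4. Of the 11 replication-independent histone genes tested, 9 were also highest in replicate 3, and H1F0 was the 1 gene that was lowest there. The adrenergic markers HAND2, TH and DBH were also lowest in both replicate 3 samples. With 2 samples of this number, no test was made, and in bulk RNA fewer cells that make a transcript and less of it per cell cannot be told apart.

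Prp19 knockdown was then compared with the control. No histone gene passed a limma test of the 2 groups without a block. The more abundant histone genes were mostly higher with siPrp19 while those of low level were not. PRPF19, the siRNA target, did not pass that test either (log2 fold change −1.04, adjusted p = 0.9999 by limma). A gene that did not pass is therefore not shown to be unchanged. The paper tested with DESeq2 and reported genes that passed, and its test was not repeated here. Tested by limma on log2(FPKM + 0.1), across 14462 genes averaging 1 FPKM or more, 0 of the 20 histone genes had an FDR under 0.05, as did 0.0% of all genes (at an unadjusted p under 0.05 there were 0 of the 20 and 225 of all genes, and voom without a block also gave 0 at this FDR). The log2 fold change was above 0 for 18 of the 20 (90%), against 49.0% of all genes tested, and its median was 0.26 against −0.0040 for all genes. Of the 46 histone genes under 1 FPKM and above 0, 18 (39.1%) were above 0 and 28 below, with a median of −0.098, and over all 66 genes above 0 the median was 0.11. HIST1H2BJ and HIST2H3D, both among the 20, reached a mean of 1 FPKM in the siPrp19 group only. HIST2H2AA3 did so in the siPrp19 group only and HIST1H4J, HIST1H2AI and HIST1H2BO in the NC group only, and these 4 were not among the 20. With the filter set on the NC samples alone, 16 of 21 genes were above 0 with a median of 0.18, and with either group at 1 FPKM or more, 19 of 24 with a median of 0.23. Leaving out 1 same-numbered pair gave medians of 0.17 without pair 1, 0.27 without pair 2 and 0.28 without pair 3. Leaving out 1 sample, which breaks a pair, gave 0.022 without NC replicate 3, 0.00021 without siPrp19 replicate 2, 0.52 without NC replicate 2 and 0.57 without siPrp19 replicate 3. In none of the 20 did the groups separate, with siPrp19 above NC in 2.77% and below in 2.84% of all genes.

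Within same-numbered pairs, 7 of the 20 genes (35%) were higher with siPrp19 in 3 of 3 pairs, against 19.2% of all genes, and 1 of 20 (5%) was lower in 3 of 3, against 21.3%. The 7 were HIST3H2A, HIST1H2BD, HIST1H2BK, HIST1H2AC, HIST1H2BG, HIST1H4K and HIST1H3H, and the 1 was HIST1H1D. HIST1H1D had 35, 28 and 5 reads with NC and 32, 29 and 6 with siPrp19. Its reads were thus not fewer in pairs 2 and 3, where only the value scaled for depth was lower. HIST1H4K counts only as a single copy, since HIST1H4K and its copy HIST1H4J together had 26, 24 and 9 reads with NC and 21, 30 and 11 with siPrp19, lower in pair 1. By class they were 2 of 5 H2A genes, 3 of 7 H2B genes, 1 of 3 H3 genes, 1 of 3 H4 genes and 0 of 2 H1 genes. The median change over the 20 genes was 0.38 in pair 1, 0.23 in pair 2 and 0.014 in pair 3 on the log2 scale, against −0.023, −0.0042 and 0.0086 over all genes. Among the 46 histone genes under 1 FPKM and above 0, 3 were higher and 4 lower in 3 of 3 pairs, against 8.11% and 8.68% of all 23214 such genes. The 3 were HIST1H2BN, HIST1H2BL and HIST2H4A, and the 4 were HIST1H2BO, HIST1H2AL, HIST1H2BF and HIST2H2AB. HIST2H2AB had 1 to 2 reads in each NC sample and was listed at 0 in each siPrp19 sample. HIST1H2BF had 5, 13 and 5 reads with NC and 5, 4 and 5 with siPrp19, so its reads were equal in pairs 1 and 3. HIST1H2AL had 2 reads in both samples of pair 2. In these pairs the lower FPKM came from the scaling for depth alone.

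**Figure D5:**
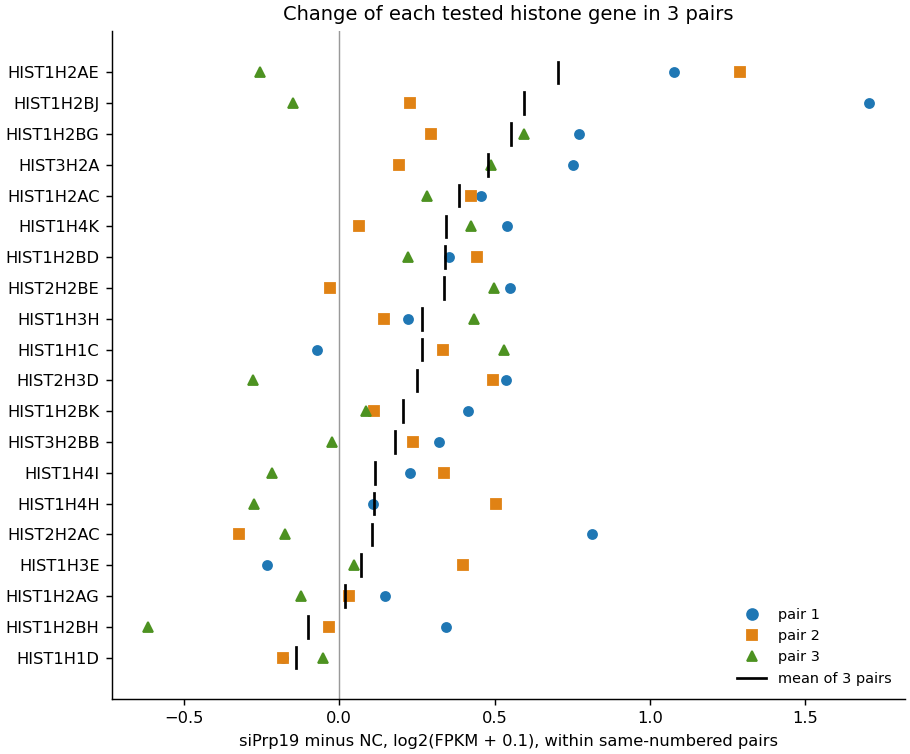
Difference of siPrp19 minus NC in log2(FPKM + 0.1) (x axis) within each same-numbered pair, for the 20 tested histone genes ordered by the mean of the 3 pairs (black line); blue circles, orange squares and green triangles are pairs 1, 2 and 3. The black line lies above 0 for 18 of the 20 genes, and the 3 points of HIST1H2AC lie between 0.28 and 0.46.

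HIST3H2A changed by 0.75, 0.19 and 0.49 on the log2 scale in pairs 1, 2 and 3, with a log2 fold change of 0.48 (standard error 0.26, adjusted p = 0.9999 by limma; exact two-sided permutation p = 0.20, where 3 against 3 samples cannot give less than 0.10). HIST1H2BD changed by 0.35, 0.44 and 0.22 in the 3 pairs and HIST1H2AC by 0.46, 0.42 and 0.28, both more evenly than HIST3H2A. Their log2 fold changes were 0.34 (standard error 0.69) and 0.39 (standard error 0.80), each with an adjusted p of 0.9999 by limma. With the replicate number as a block, these standard errors fell to 0.059 and 0.063, and the adjusted p was 0.196 and 0.19. In that fit 0 of the 20 genes had an FDR under 0.05, with adjusted p from 0.19 to 0.95, and 4 (20%) had an unadjusted p under 0.05, all higher with siPrp19, against 6.89% of all genes. These were HIST1H2AC, HIST1H2BD, HIST3H2A and HIST1H2BG.

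In 2 further fits with the replicate block, some of these genes passed. With limma voom on the recovered reads, 3 of 20 (15%) rose with siPrp19 at an FDR under 0.05, against 2.6% of 14064 genes. They were HIST3H2A (0.49, adjusted p = 0.00065), HIST1H2BD (0.37, adjusted p = 0.0055) and HIST1H2AC (0.42, adjusted p = 0.0116). Among genes averaging 5 FPKM or more, 2 of 6 rose, HIST1H2AC and HIST1H2BD with an adjusted p of 0.0493 each, against 0.43% of 7913 genes, while HIST3H2A had 0.0665. Over all 18 alternatives the adjusted p of HIST3H2A ranged from 0.00065 to 1, that of HIST1H2BD from 0.0055 to 1 and that of HIST1H2AC from 0.0116 to 1. Without a block and with 1 sample left out in turn, which breaks a pair, HIST3H2A ran from 0.28 to 0.67. HIST1H2BD ran from −0.20 to 0.93 and HIST1H2AC from −0.30 to 1.13. Replicate 3 was low in both of these (29.2% and 21.5% of replicates 1 and 2), and each was higher with siPrp19 in 3 of 3 pairs. These ranges therefore do not rank the genes by how steady the change was within pairs.

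The largest log2 fold change was that of HIST1H2AE, 0.70 (standard error 0.41, adjusted p = 0.9999 by limma), from 19 to 65 reads. It was 1.08 and 1.29 in pairs 1 and 2 and −0.25 in pair 3. HIST1H2BJ followed with 0.59, of which pair 1 alone gave 1.70, from 8 against 32 reads. HIST1H2BG had 0.55 with 0.77, 0.30 and 0.59 in the 3 pairs. HIST1H1C, the main linker histone, changed by −0.069, 0.34 and 0.53, and HIST1H4H by 0.11, 0.50 and −0.27. The 2 genes below 0 were HIST1H1D (−0.14) and HIST1H2BH (−0.10), both by less than their standard errors. The remaining genes lay between 0.019 for HIST1H2AG and 0.34 for HIST1H4K.

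Genes that make, carry or replace these histones were looked up from lists of named genes, and those named only for passing voom with the block were chosen after their values were seen. Of 16 genes of histone pre-mRNA processing and transcription, 0 had an FDR under 0.05 by limma, with or without the block, and the median log2 fold change was −0.00089. SLBP, the stem-loop binding protein, had 34.2 ± 4.33 FPKM with NC and 33.0 ± 4.74 FPKM with siPrp19 (SD, n = 3 each), and NPAT, which activates histone transcription in S phase, had 7.66 ± 0.62 and 8.405 ± 1.12 FPKM. The most abundant of the list was SNRPE, a Sm protein, with 89.0 to 111.5 FPKM. In voom with the block, where 4.44% of all genes fell, 1 of the 16 fell and 0 rose, CSTF2 (−0.40, adjusted p = 0.0099), a cleavage factor subunit. Of 13 histone chaperones 0 passed in the limma fits and 1 fell in voom with the block, ASF1A (−0.37, adjusted p = 0.00577), which hands H3 and H4 to assembly factors. The most abundant chaperone, SUPT16H, had 46.2 ± 7.25 and 45.7 ± 4.47 FPKM (SD, n = 3 each).

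Of the 11 replication-independent histone genes tested, 0 passed in the limma fits, and 2 fell in voom with the block, H2AFX (−0.25, adjusted p = 0.0167) and H2AFV (−0.22, adjusted p = 0.0168). H1F0 had 212.6 ± 34.7 and 238.8 ± 53.5 FPKM with NC and siPrp19 (SD, n = 3 each) and was higher in 3 of 3 pairs. In this list 3 genes were higher in 3 of 3 pairs (H1F0, H2AFJ and H2AFY2) and 4 lower (H2AFZ, H2AFV, H3F3B and CENPA). Of 16 S phase genes 0 passed by limma among genes averaging 1 FPKM or more, with or without the block. None was higher in 3 of 3 pairs and 6 were lower, against 19.2% and 21.3% of all genes. In voom with the block 2 of them fell, against 4.44% of all genes, MCM4 (−0.21, adjusted p = 0.0125), part of the replicative helicase, and TYMS (−0.58, adjusted p = 0.000127), thymidylate synthase. TYMS was also the 1 partner gene that passed in the blocked fit of genes averaging 5 FPKM or more. MCM7, the most abundant, had 99.9 ± 12.6 and 102.4 ± 15.0 FPKM (SD, n = 3 each). RN7SL2 also fell in voom with the block (−0.46, adjusted p = 0.00054), with 4493, 3154 and 2775 FPKM in NC replicates 1, 2 and 3 and 2992, 3160 and 1596 FPKM in siPrp19 replicates 1, 2 and 3. The part of library differences in RNA without a poly(A) tail in the histone values was not tested.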

How the data were processed

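SK-N-BE (2) cells, 3 NC and 3 siPrp19 samples, were sequenced by a service company. Per the labels' processing notes, HISAT2 2.0.5, featureCounts 1.5.0-p3 and hg38 were used, and the annotation release is not given in the sources used here. The authors deposited 1 table of FPKM values per sample. Members and gene lists were chosen with earlier results of these data known. The genes named were PRPF19, the 25 histone genes of highest mean FPKM, the highest of each class, and SLBP, NPAT and the most abundant gene of each partner list; others were named after their values were seen.

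Of the 58302 gene identifiers, 58039 are in GENCODE release 29. FPKM times exon length gave whole reads (within 0.05 plus 0.05% of the count) in all samples for 97.1% of the 37521 genes above 0, and for all 71 histone genes. Counting error alone limits the low genes, such as HIST1H4K with 4 to 21 reads.

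The test was limma's (version 3.58.1, R 4.3.3; eBayes with trend) on log2(FPKM + 0.1), for genes averaging 1 FPKM or more. Adjusted p values follow Benjamini and Hochberg over all genes tested. Fold changes on this scale understate those of low genes. The study's methods name no block. Same-numbered samples correlated (mean r of deviations 0.53), so fits with the replicate number as a block are given too. Alternatives were a pseudocount of 1, no filter, a filter at 5 FPKM, TPM, quantile normalization, eBayes without trend and robust, voom on recovered reads, the block with 3 of these, leaving out genes with overlapped exons from the class sums, and each sample left out. Values without 1 pair, filters on 1 or either group, and pair counts under other scalings were added after seeing the data. The fit was tested on simulated data first. Permutation tests used scipy 1.17.1.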

Additional observations from a re-analysis of the deposited data

How the results depend on the processing

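The count of genes with an FDR under 0.05 was 0 over all genes, among the histone genes and in the partner lists, and stayed at 0 (from 0 to 0) on leaving out any 1 sample. It was 1 over all genes with eBayes without trend and robust. With voom on recovered reads and the replicate block it was 991 over all genes, 3 among the histone genes and 7 in the partner lists, and with the replicate block and a mean of at least 5 FPKM it was 124, 2 and 1. The replicate block alone changed no call (0 genes). Of the 7 single-gene results that passed only in these blocked fits, 5 were of the histone genes named in the report and the rest of PRPF19. The median log2 fold change of the tested histone genes, 0.26, was 0.11 over 66 genes with no filter on low values, and ran from 0.00021 to 0.57 with a sample left out and from 0.17 to 0.28 with a pair left out. The count of tested histone genes higher in 3 of 3 pairs was 7 of 20 (35%), against 19.2% of all genes tested. At a mean of at least 5 FPKM, where fewer genes were tested, it was 4 of 6. The share of all genes at that level is not given, so the 4 of 6 has no value to be set against.

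With a sample left out in turn, the log2 ratio of summed FPKM, siPrp19 over NC, ran from −0.13 to 0.42 for H1, 0.27 to 0.67 for H2A, −0.081 to 0.68 for H2B, −0.074 to 0.38 for H3 and −0.49 to 0.58 for H4. Single genes that changed direction ran from −0.20 to 0.93 for HIST1H2BD, −0.12 to 0.52 for HIST1H1C, −0.30 to 1.13 for HIST1H2AC, −0.87 to 1.29 for HIST1H4H, −0.079 to 0.26 for HIST1H4I, −0.21 to 0.85 for HIST1H4K, −0.20 to 0.30 for HIST2H2AC, −0.29 to 0.41 for HIST1H3E, −0.032 to 0.081 for HIST1H2AG, −0.93 to 0.61 for HIST1H1D, −0.0051 to 0.46 for HIST3H2BB, −0.44 to 0.50 for HIST1H2BH and −0.17 to 0.74 for HIST2H3D. HIST1H2BH was also above 0 in voom with the block (0.021) and with replicates 1 and 2 alone (0.16). The ranges with a sample left out also carry differences between replicates, since leaving out 1 sample breaks a pair. Few reads limit most of these genes, since 51 of 71 lay under 1 FPKM, and genes with near-identical copies could not be separated.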
